A study of Mus musculus with 19 samples.

Results

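The interferon response genes and chemokines described here were the 35 genes, of the 1609 in a table of differentially expressed genes, chosen by symbol alone, with prefixes of interferon response and chemokine families such as Ifi, Ifit, Oas, Irf, Isg, Gbp, Usp18, Rtp4, Bst2, Cxcl, Ccl and Parp. They comprised 5 regulators (among them Irf5, Irf7, Irf9 and Usp18), 20 interferon-induced proteins, 4 CXC chemokines, 5 CC chemokines and Parp1. No row of the table began with Rsad2, Mx1, Mx2, Ddx58 or Dhx58. In SCC2, one of the tumours, 34 of the 35 genes were higher in quiescent than in proliferative tumour cells, against 45.1% of all 1609 genes. In SCC1, the other tumour, 11 of the same 35 were, against 38.3%.

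The cells came from C57BL/6 mouse skin squamous cell carcinomas, grown as allografts after an intradermal injection of 10000 cells. Quiescent cells (CD71lo H2BGFPhi), double negative cells (CD71lo H2BGFPlo) and proliferative cells (CD71hi H2BGFPlo) were sorted from SCC1 and SCC2, with 1 RNA library of 100000 cells for each population and tumour, 6 libraries in all. H2BGFP is a histone-bound fluorescent label that is diluted as cells divide, and CD71 is the transferrin receptor, which is abundant on cycling cells. All 3 populations were sorted by the same label and receptor, and the descriptions give these RNA libraries no treatment and no other genotype. The whole series held 19 samples, among them 10 ATAC-seq libraries, which map open chromatin, of 50000 sorted cells each. They also included a Smad2/3 ChIP-seq of SCC1 cells with inputs of SCC1 and SCC2, each from 12000000 cells in culture at 50 uM calcium that had received 5 ng/mL TGFβ1 for 1 h. A tumour labelled Tgfbr2KO, SCC3, had ATAC-seq libraries but no RNA library here.

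Interferons are secreted proteins that signal through cell surface receptors to transcription factor complexes such as the one that holds Irf9, and these switch on a large group of antiviral genes through a short DNA element, the interferon-stimulated response element. Type II interferon strongly induces guanylate binding proteins and the chemokines Cxcl9 and Cxcl10. Chemokines guide leukocytes into tissues, and in skin they are made by keratinocytes, fibroblasts and immune cells alike.

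Promoter sequence was available for 24 of the 35 genes from RefSeq (GRCm38.p6), as a window from 250 bases before to 50 bases after the annotated start. Gbp3 and Irf9 had more than 1 annotated start, and a gene was counted if any of its windows held a match. The core of the response element was searched on both strands as GAAA, any 2 bases and GAAA again, with overlapping matches kept as 1 stretch of capitals in the sequences printed here. It lay in the window of 9 of 24 genes (37.5%): Bst2, Cxcl10, Gbp1, Gbp2, Gbp3, Ifit1, Ifit3, Ifitm3 and Isg15. Among all genes of the table with a promoter the share was 66 of 1226 (5.38%), and among all promoters of the reference it was 1079 of 27025 (3.99%). The 8 genes with a match before the start are shown because 5 of them are among the 11 genes that were at least 1 apart from proliferative cells in opposite directions in the tumours. Capitals mark the matches with 20 bases either side, read along the gene's strand, so that TTTC marks a match on the opposite strand.
Isg15, chr4:156200855-156200916, minus strand: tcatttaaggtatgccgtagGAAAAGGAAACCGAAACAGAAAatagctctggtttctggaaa
Ifit1, chr19:34640765-34640833, plus strand: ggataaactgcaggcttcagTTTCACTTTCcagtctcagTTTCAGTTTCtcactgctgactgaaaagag
Ifit3, chr19:34583353-34583436, plus strand: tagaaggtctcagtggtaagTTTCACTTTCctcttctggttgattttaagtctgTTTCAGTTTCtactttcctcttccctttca
Gbp1, chr3:142594690-142594739, plus strand: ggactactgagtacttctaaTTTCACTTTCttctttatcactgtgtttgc
Gbp2, chr3:142620584-142620633, plus strand: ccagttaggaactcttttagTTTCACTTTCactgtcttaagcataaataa
Gbp3, chr3:142559979-142560034, plus strand: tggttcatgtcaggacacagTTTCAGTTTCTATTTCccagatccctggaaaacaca
Cxcl10, chr5:92349073-92349122, minus strand: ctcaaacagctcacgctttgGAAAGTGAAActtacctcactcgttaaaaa
Bst2, chr8:71537567-71537622, minus strand: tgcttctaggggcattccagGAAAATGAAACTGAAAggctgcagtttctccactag
Isg15 had 3 overlapping matches, the first beginning at position -78 from the start. Gbp3 and Bst2 had 2 overlapping matches each, and Ifit1 and Ifit3 had 2 separate ones. In Ifitm3 the matches lay after the start, from position 2, and are not printed. A longer form, the core followed by C, was present in 8 of the 24 genes (33.3%), the 9 genes except Gbp1. The share was 2.04% for the table's promoters and 0.944% for all promoters. The core of the gamma-activated sequence, TTCNNNGAA, is its own reverse complement. It was found in 5 of the 24 genes (Bst2, Ifi202b, Ifi35, Ifitm3 and Ifitm6), against 9.55% of all promoters. In Bst2 and Ifitm3 it overlapped a response element match.

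An NF-kB type motif was searched on both strands as GGG, any 2 bases and TTTCC. It was present in 2 of the 24 genes, Cxcl1 and Cxcl2, against 1.89% of all promoters. These neighbouring genes encode chemokines that attract neutrophils, and each held 2 matches.
Cxcl1, chr5:90891136-90891203, plus strand: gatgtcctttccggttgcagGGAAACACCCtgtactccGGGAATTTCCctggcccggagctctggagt
Cxcl2, chr5:90903782-90903850, plus strand: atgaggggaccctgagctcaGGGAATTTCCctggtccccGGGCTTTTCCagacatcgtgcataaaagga
All these matches are descriptions of the letters in the window and do not show binding.

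**Figure D1:**
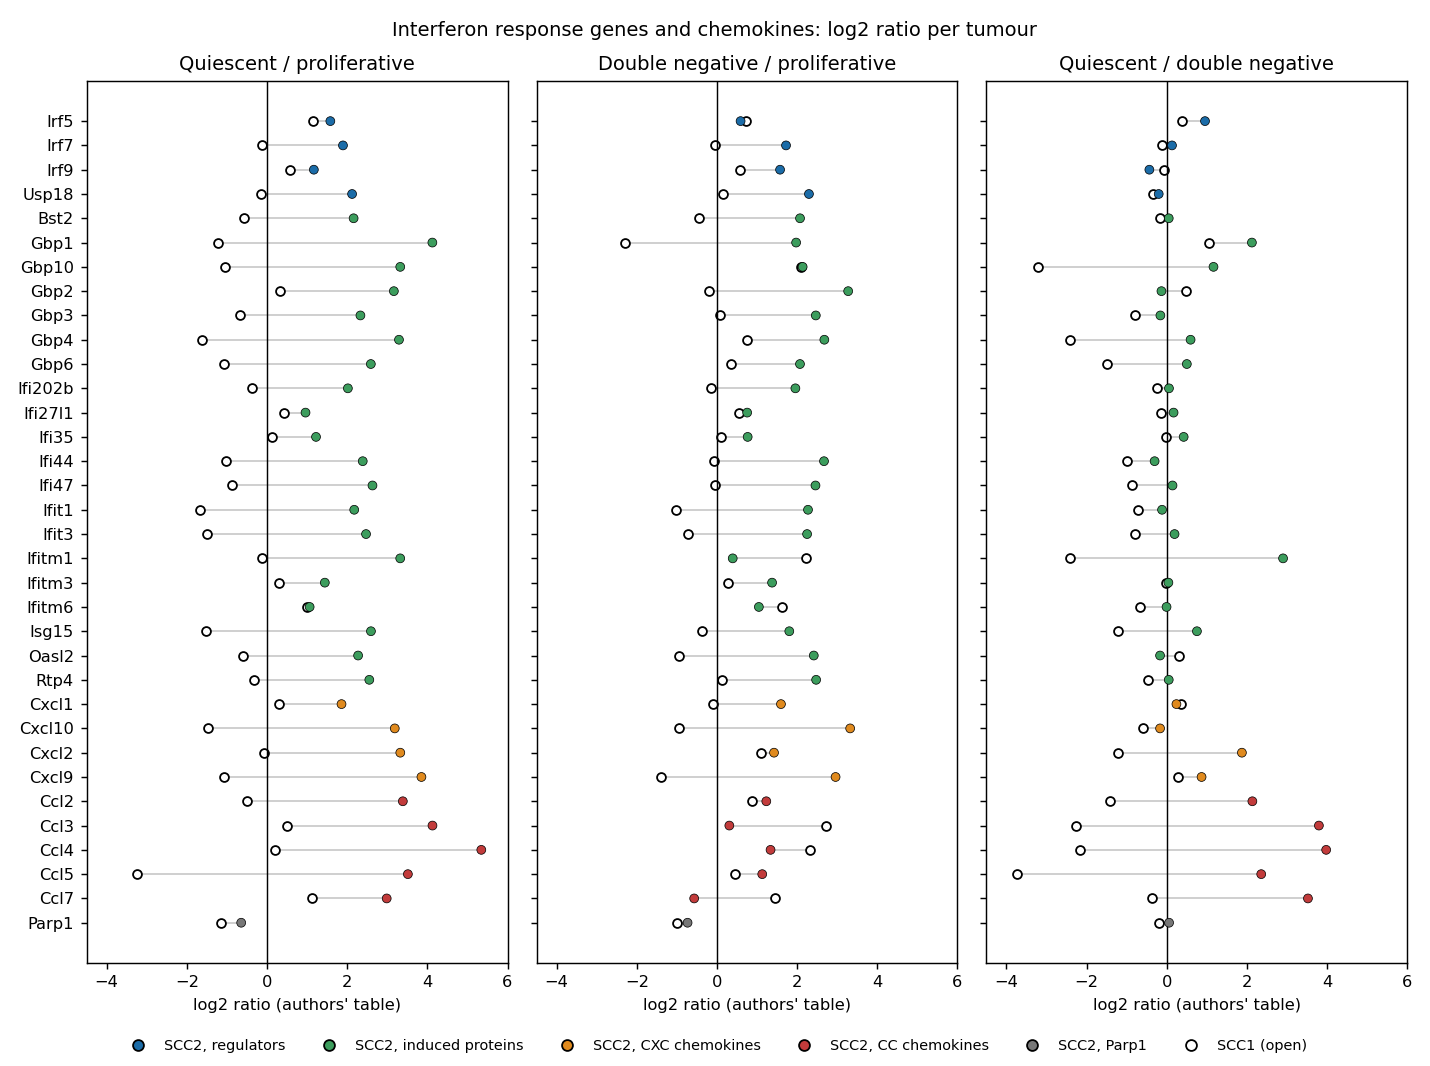
Log2 ratios of 34 of the 35 genes (rows, coloured by role) for quiescent over proliferative, double negative over proliferative and quiescent over double negative cells. Filled points are SCC2 and open points SCC1, with 1 library per population and tumour and hence no error bars. Nearly all filled points of the 2 panels against proliferative cells lie right of 0, and the CC chemokines are far apart between tumours in the last panel.

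Quiescent cells were compared with proliferative cells to ask which genes mark tumour cells that divide rarely. All values are log2 ratios of expression within a tumour, as the submitters' Cuffdiff run gave them, and a ratio of 1 is a doubling. The table holds no expression levels, so levels cannot be compared between genes and depth cannot be read from it. With 1 library on each side there was no replicate within a tumour, and calling a gene higher or lower required the same sign in both tumours. The spread between the tumours is the only replicate error, and a limma test on it is given after the 3 comparisons. By this count 11 of the 35 genes were higher in quiescent cells in both tumours, against 35.8% of all 1609 genes. Parp1 was the only one lower in both, against 52.3%. The other 23 had opposite signs in the tumours, against 11.6% of all genes. All 23 were higher in SCC2 and lower in SCC1, a pattern shown by 9.26% of the table. At a size of at least 1 in both tumours, 11 genes kept opposite signs, against 2.11% of all genes. Of the 30 rows of the table that were at least 1 higher in SCC2 and at least 1 lower in SCC1, these 11 made up 36.7%.

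The median over the 35 genes was 2.47 in SCC2, a 5.54-fold excess in quiescent cells, and -0.37 in SCC1. All 1609 genes had medians of -0.49 in SCC2 and -0.61 in SCC1. Relative to those, the 35 genes stood at 2.96 in SCC2 and 0.24 in SCC1, so the direction of the SCC1 median turns round when ratios are centred on the table. After centring 20 of the 35 genes were higher in SCC1 and 14 were lower. By construction, centring places as many genes of the whole table above 0 as below it. Across the 35 genes the SCC1 and SCC2 ratios had a Pearson correlation of -0.23, and across the 25 regulators and induced proteins it was -0.63, against 0.64 over all 1609 genes. Genes are not independent replicates, and these correlations are descriptions only.

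The regulators had a median of 1.58 in SCC2 and -0.12 in SCC1. Irf7, the factor that amplifies type I interferon transcription, had a ratio in the authors' deposited table of 1.89 in SCC2 and -0.12 in SCC1. Usp18, a protease that removes Isg15 from proteins and dampens receptor signalling, had 2.12 in SCC2 and -0.16 in SCC1 in the authors' deposited table. For both genes quiescent cells were at least 1.89 above proliferative cells in SCC2 and within 0.16 of them in SCC1. Irf9, the DNA-binding subunit of the complex that type I interferon activates, was higher in both tumours, with 1.17 in SCC2 and 0.57 in SCC1 in the authors' deposited table. Irf5, which acts downstream of Toll-like receptors and is best known from myeloid cells, was also higher in both, with 1.58 in SCC2 and 1.14 in SCC1 in the authors' deposited table. Irf5 and Ccl7 were the 2 genes at or above 1 in both tumours, against 11.3% of all genes.

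The induced proteins had a median of 2.43 in SCC2 and -0.65 in SCC1. Of the 20, 15 had opposite signs, against 11.6% of all genes. In SCC1 their centred median was -0.04, level with the table as a whole. Isg15, a ubiquitin-like modifier with 3 response element matches in its promoter, had 2.59 in SCC2 and -1.53 in SCC1 in the authors' deposited table. Ifit1 and Ifit3, neighbouring genes of the same family, had 2.17 in SCC2 and -1.68 in SCC1 and 2.47 in SCC2 and -1.50 in SCC1 in the authors' deposited table. Ifi44, another induced protein, had 2.39 in SCC2 and -1.03 in SCC1 in the authors' deposited table. These 4 genes were all at least 1 higher in SCC2 quiescent cells and at least 1 lower in SCC1 quiescent cells. The 9 genes with a response element match had a median of 2.47 in SCC2 and -1.22 in SCC1. The 15 other genes with a promoter sequence had medians of 2.02 in SCC2 and -0.12 in SCC1. The 9 were induced proteins and Cxcl10, whereas the 15 also held regulators, other chemokines and Parp1. Motif and role are therefore mixed in this comparison.

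Guanylate binding proteins are interferon-induced GTPases that act on intracellular pathogens. Gbp1 had the largest ratio of the 6, with 4.12 in SCC2 and -1.22 in SCC1 in the authors' deposited table. Gbp4 had 3.29 in SCC2 and -1.63 in SCC1, Gbp10 had 3.32 in SCC2 and -1.06 in SCC1 and Gbp6 had 2.59 in SCC2 and -1.08 in SCC1 in the authors' deposited table. Gbp3 had 2.33 in SCC2 and -0.69 in SCC1 in the authors' deposited table. Gbp2 was the exception in direction, with 3.16 in SCC2 and 0.33 in SCC1 in the authors' deposited table. These genes are close paralogs in a run on chromosome 3 and another on chromosome 5, so reads could be shared among them and single values are uncertain.

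Of the remaining induced proteins, Bst2 (tetherin, which holds virus particles at the cell surface) had 2.16 in SCC2 and -0.57 in SCC1 and Oasl2, a relative of the oligoadenylate synthetases, had 2.27 in SCC2 and -0.61 in SCC1 in the authors' deposited table. Rtp4 had 2.55 in SCC2 and -0.32 in SCC1, Ifi47 had 2.63 in SCC2 and -0.89 in SCC1 and Ifi202b, a DNA-binding protein of the p200 family, had 2.02 in SCC2 and -0.37 in SCC1 in the authors' deposited table. All 5 had the sign pattern of the group, higher in SCC2 and lower in SCC1. Ifi27l1 with 0.96 in SCC2 and 0.42 in SCC1, and Ifi35 with 1.22 in SCC2 and 0.11 in SCC1 in the authors' deposited table, were higher in both tumours. The interferon-induced transmembrane proteins, which block virus entry, varied among themselves. Ifitm6 had 1.06 in SCC2 and 1.00 in SCC1 in the authors' deposited table, the smallest gap between tumours of the 35 genes. Ifitm3 had 1.44 in SCC2 and 0.30 in SCC1 and Ifitm1 had 3.32 in SCC2 and -0.14 in SCC1 in the authors' deposited table.

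The CXC chemokines had a median of 3.26 in SCC2 and -0.58 in SCC1. Cxcl10 and Cxcl9, which attract activated T cells through Cxcr3, had 3.19 in SCC2 and -1.48 in SCC1 and 3.85 in SCC2 and -1.08 in SCC1 in the authors' deposited table. Cxcl2 had 3.32 in SCC2 and -0.08 in SCC1 and Cxcl1 had 1.86 in SCC2 and 0.30 in SCC1 in the authors' deposited table. The neutrophil-attracting pair thus lay within 0.30 of proliferative cells in SCC1, where the Cxcr3 ligands were lower by more than 1. The CC chemokines had the highest group median in SCC2, 3.51 or 11.4-fold, and 0.21 in SCC1. Ccl4 and Ccl3, which attract macrophages and T cells, had 5.35 in SCC2 and 0.21 in SCC1 and 4.13 in SCC2 and 0.48 in SCC1 in the authors' deposited table. Ccl7 and Ccl2, which attract monocytes through Ccr2, had 2.98 in SCC2 and 1.12 in SCC1 and 3.39 in SCC2 and -0.50 in SCC1 in the authors' deposited table. Ccl5, which attracts T cells and macrophages, had 3.51 in SCC2 and -3.25 in SCC1 in the authors' deposited table. Its gap of 6.76 between the tumours was the widest of the 35 genes in this comparison. The annotated Ccl3 and Ccl4 genes overlap, so their reads may not be fully separated. Parp1, a sensor of DNA strand breaks that entered through its family name, had -0.65 in SCC2 and -1.15 in SCC1 in the authors' deposited table.

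Double negative cells were set against the same proliferative libraries, so the comparisons are not independent of each other. Here 19 of the 35 genes were higher in double negative cells in both tumours, against 42.6% of all genes, and Parp1 alone was lower in both, against 50.9%. The other 15 had opposite signs, against 6.03%. Of these 14 were higher in SCC2, against 2.92% of all genes, and Ccl7 was higher in SCC1, against 3.11%. The median was 1.85 in SCC2, or 3.61-fold, and 0.09 in SCC1, beside -0.34 and -0.35 over all genes in SCC2 and SCC1. At least 1 in both tumours were Ccl4, Cxcl2, Gbp10 and Ifitm6, 4 of 35 against 15.5% of all genes. In SCC2, 33 of the 35 genes were therefore lowest in proliferative cells of the 3 populations, against 41.8% of all genes. In SCC1 proliferative cells were lowest for 9, highest for 13 and between the others for 13, against 37%, 52.8% and 9.94% of all genes.

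The regulators had a median of 1.72 in SCC2 and 0.15 in SCC1. Usp18 had 2.30 in SCC2 and 0.15 in SCC1 and Irf7 had 1.72 in SCC2 and -0.04 in SCC1 in the authors' deposited table. Irf9 had 1.58 in SCC2 and 0.59 in SCC1 and Irf5 had 0.59 in SCC2 and 0.73 in SCC1 in the authors' deposited table. Apart from Irf5, which differed little between tumours, double negative cells showed the larger excess in SCC2 for each of these regulators. The induced proteins had a median of 2.11 in SCC2 and 0.01 in SCC1. Of the 20, 10 were higher in both tumours, against 42.6% of all genes. The widest gaps between tumours were those of Cxcl9, with 2.96 in SCC2 and -1.40 in SCC1, and Gbp1, with 1.98 in SCC2 and -2.30 in SCC1 in the authors' deposited table. Cxcl10 had 3.32 in SCC2 and -0.94 in SCC1 and Isg15 had 1.81 in SCC2 and -0.36 in SCC1 in the authors' deposited table. These 4 genes were lower in SCC1 double negative cells and at least 1.81 higher in SCC2 double negative cells. Gbp10 had nearly equal values, 2.14 in SCC2 and 2.10 in SCC1 in the authors' deposited table, and Gbp4 had 2.68 in SCC2 and 0.74 in SCC1 there. Ifitm6 had 1.05 in SCC2 and 1.63 in SCC1 in the authors' deposited table, higher in both tumours as it was in quiescent cells.

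The CC chemokines differed in this comparison, with a median of 1.13 in SCC2 and 1.45 in SCC1. Ccl3 had 0.31 in SCC2 and 2.72 in SCC1 and Ccl4 had 1.34 in SCC2 and 2.33 in SCC1 in the authors' deposited table. Ccl7 had -0.57 in SCC2 and 1.45 in SCC1, Ccl2 had 1.23 in SCC2 and 0.87 in SCC1 and Ccl5 had 1.13 in SCC2 and 0.45 in SCC1 in the authors' deposited table. For Ccl3, Ccl4 and Ccl7 the SCC1 ratio was thus the larger. The induced proteins had medians of 2.11 in SCC2 and 0.01 in SCC1, beside -0.34 and -0.35 over all genes. Ifitm1 also had the larger ratio in SCC1, with 0.39 in SCC2 and 2.23 in SCC1 in the authors' deposited table. Cxcl2 had 1.42 in SCC2 and 1.09 in SCC1 and Cxcl1 had 1.60 in SCC2 and -0.10 in SCC1 in the authors' deposited table.

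**Figure D2:**
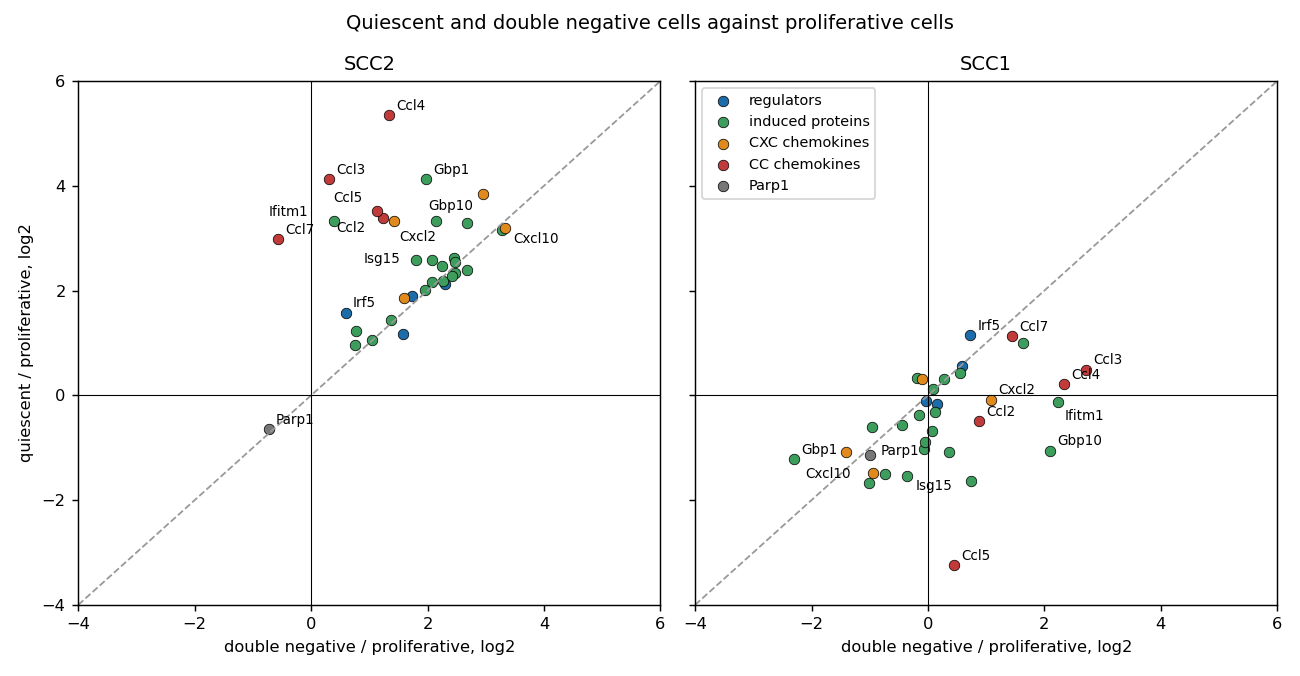
Log2 ratio of quiescent over proliferative cells (vertical) against double negative over proliferative cells (horizontal) for 34 of the 35 genes in SCC2 (left) and SCC1 (right), coloured by role, with equal ratios on the dashed line. Both axes share the proliferative library of a tumour. In SCC2 most regulators and induced proteins lie near the line at 1 to 3 on both axes and the CC chemokines lie above it, and in SCC1 the CC chemokines lie below it.

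Quiescent and double negative cells both have low CD71 and differ in label. Their direct ratio split the genes into those alike in both populations and those that were not. Only 4 genes were higher in quiescent cells in both tumours (Cxcl1, Cxcl9, Gbp1 and Irf5), against 16.3% of all genes. A further 8 were lower in both (Cxcl10, Gbp3, Ifi44, Ifit1, Ifitm6, Irf9 and Usp18 among them), against 30% of all genes. The remaining 23 had opposite signs, against 53.4%. Among these 21 were higher in SCC2, against 40.8%, and Gbp2 and Oasl2 were higher in SCC1, against 12.6%. Gbp1 was the only gene past 1 with 1 sign in both tumours, at 2.12 in SCC2 and 1.04 in SCC1 in the authors' deposited table, against 1.31% of all genes. The median was 0.17 in SCC2 and -0.48 in SCC1, beside 0.13 and -0.23 over all genes in SCC2 and SCC1.

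In SCC2 the ratio was smaller than 0.5 in size for 22 of the 35 genes, including 15 of 20 induced proteins and 4 of 5 regulators but none of the 5 CC chemokines. Of all genes, 46.6% were within that size. In SCC1 it was smaller than 0.5 for 17 of 35, with 8 of 20 induced proteins, all 5 regulators and 1 CC chemokine, against 58.2% of all genes. Usp18 had -0.20 in SCC2 and -0.35 in SCC1 and Irf7 had 0.13 in SCC2 and -0.12 in SCC1 in the authors' deposited table. Irf9 had -0.44 in SCC2 and -0.06 in SCC1 and Irf5 had 0.95 in SCC2 and 0.38 in SCC1 in the authors' deposited table. Among the regulators the populations with low CD71 were thus within 0.95 of each other in either tumour. Cxcl10 had -0.17 in SCC2 and -0.58 in SCC1 and Cxcl9 had 0.87 in SCC2 and 0.28 in SCC1 in the authors' deposited table.

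The CC chemokines were higher in quiescent cells of SCC2, with a median of 3.52 or 11.5-fold, and lower in quiescent cells of SCC1, with a median of -2.16 or 4.46-fold lower. Ccl4 had 3.98 in SCC2 and -2.16 in SCC1 and Ccl3 had 3.80 in SCC2 and -2.28 in SCC1 in the authors' deposited table. Ccl5 had 2.36 in SCC2 and -3.74 in SCC1, Ccl2 had 2.14 in SCC2 and -1.41 in SCC1 and Ccl7 had 3.52 in SCC2 and -0.36 in SCC1 in the authors' deposited table. All 5 had opposite signs, against 53.4% of all genes, and all were higher in SCC2, against 40.8%. The gaps between tumours reached 6.14 for Ccl4. Ifitm1 had 2.90 in SCC2 and -2.41 in SCC1 and Cxcl2 had 1.87 in SCC2 and -1.21 in SCC1 in the authors' deposited table, the same signs as the CC chemokines. The guanylate binding proteins are also given by chromosome, a split made after their values were seen. On chromosome 5, Gbp10 with 1.17 in SCC2 and -3.20 in SCC1, Gbp4 with 0.59 in SCC2 and -2.41 in SCC1 and Gbp6 with 0.50 in SCC2 and -1.48 in SCC1 in the authors' deposited table were all at least 1 lower in SCC1 quiescent cells. On chromosome 3, Gbp1, Gbp2 and Gbp3 had 1.04, 0.48 and -0.80 in SCC1 in the authors' deposited table. Isg15 had 0.75 in SCC2 and -1.21 in SCC1 and Ifitm6 had -0.01 in SCC2 and -0.68 in SCC1 in the authors' deposited table.

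Counts within single tumours and at larger sizes place these members beside the table. Against proliferative cells, quiescent cells were lower for 1 gene in SCC2, against 54.6% of all genes, and for 24 in SCC1, against 61.6%. Double negative cells were higher for 33 genes and lower for 2 in SCC2, against 45.6% and 54.1% of all genes. In SCC1 they were higher for 20 and lower for 15, against 45.9% and 53.9%. Quiescent cells were above double negative cells for 25 genes and below them for 10 in SCC2, against 57.1% and 42.7%. In SCC1 they were above for 6 and below for 29, against 29% and 70.9%. No gene was opposite in sign with the higher quiescent to proliferative ratio in SCC1, against 2.36% of all genes.

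At a size of at least 0.5 in both tumours, 4 genes were higher in quiescent than proliferative cells, against 25.5%. Parp1 was lower, against 45.8%, and 15 genes were opposite, against 4.66%. For double negative against proliferative cells 9 were higher, against 32.9%, Parp1 was lower, against 42.3%, and 7 were opposite, against 1.74%. For quiescent against double negative cells Gbp1 was higher, against 2.98%, none was lower, against 8.08%, and 9 were opposite, against 18.3%. At a size of at least 1, none of the 35 genes was lower in both tumours, against 23.3% of all genes for quiescent and 25.2% for double negative over proliferative cells, and 2.3% for quiescent over double negative cells. Opposite signs at that size were held by Cxcl9, Gbp1 and Ifit1 for double negative over proliferative cells, 3 genes against 0.622% of all. For quiescent over double negative cells they were held by 7 genes, against 8.58%.

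A moderated test, limma on the ratios of the 2 tumours, treated each tumour as 1 replicate pair. It ran on the 1567 genes with no ratio at the end of the usual range, and p-values were adjusted over all of them. These genes come from a table of differentially expressed genes whose rule of selection is not stated. The p-values therefore describe the spread between 2 tumours within a chosen table. Double negative cells were higher than proliferative cells for 5 of the 35 genes, against 23% of all genes, and Parp1 was lower, against 35.9%. Gbp10 had a mean log2 ratio of 2.12 (SE 0.18) and a limma adjusted p of 0.0203. Ccl4 averaged 1.83, Ifitm6 1.34, Cxcl2 1.26 and Ccl2 1.05, with limma adjusted p-values of 0.0339 to 0.0384, and all 5 genes were higher in both tumours. For quiescent against proliferative cells limma called 0 of the 35 genes in either direction, and 0 of all genes. Irf5 alone among the 35 had an unadjusted p below 0.05 there, with a mean of 1.36 and a limma adjusted p of 0.18. Of all 1567 genes, 142 higher and 281 lower ones had such an unadjusted p. For quiescent against double negative cells limma also called 0 of the 35 and 0 of all genes. Gbp1 was the 1 gene of the 35 with an unadjusted p below 0.05 there, with a mean of 1.58 and a limma adjusted p of 0.999. Of all 1567 genes, 12 higher and 32 lower ones had such an unadjusted p.

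Other genes of the response also had rows in the same table. Of 47 further interferon-stimulated genes listed, 16 had ratios, and their quiescent to proliferative median was 1.79 in SCC2 and -0.36 in SCC1. Of these 6 were higher in both tumours, against 35.8% of all genes, and 1 was lower in both, against 52.3%. The other 9 had opposite signs, against 11.6%. Slfn9 was the one lower in both, with -2.52 in SCC2 and -4.49 in SCC1 in the authors' deposited table. Ddx60 had 2.30 in SCC2 and -1.30 in SCC1, Slfn2 had 1.84 in SCC2 and -1.50 in SCC1 and Ly6a had 1.00 in SCC2 and -2.37 in SCC1 in the authors' deposited table. Their double negative to proliferative median was 1.85 in SCC2 and 0.04 in SCC1. The class I antigen presentation genes, which load peptides onto the molecules read by cytotoxic T cells, gave 9 of 28 listed genes with ratios. They had a quiescent to proliferative median of 1.62 in SCC2 and -0.72 in SCC1. Of the 9, 8 were of opposite sign, against 11.6% of all genes. Among them Nlrc5, an activator of class I genes, had 2.55 in SCC2 and -0.72 in SCC1 in the authors' deposited table. The immunoproteasome subunits Psmb8 and Psmb9 had 1.70 in SCC2 and -1.65 in SCC1 and 1.49 in SCC2 and -1.57 in SCC1 in the authors' deposited table, and the class I heavy chain H2-K1 had 1.62 in SCC2 and -0.73 in SCC1 there.

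Few genes upstream of the response had rows. Of 32 listed interferons, receptors and sensors 3 had ratios. Zbp1, a nucleic acid sensor, had 2.59 in SCC2 and -0.19 in SCC1, and Mb21d1, the DNA sensor cGAS, had -1.16 in SCC2 and -1.74 in SCC1 in the authors' deposited table. Ifne, an epithelial interferon, had a quiescent to proliferative ratio of 2.44 in SCC1 in the authors' deposited table. In SCC2 that table lists it at 0, beside a double negative to proliferative ratio of 12 and a quiescent to double negative ratio of -12, values that stand at the end of the usual range, so the 0 is not read as equal expression. Of 14 listed regulators 7 had ratios, and the 1 of these that is not among the 35 genes, the cytokine feedback inhibitor Socs3, had 0.92 in SCC2 and 1.39 in SCC1 in the authors' deposited table. Of 25 listed chemokine receptors and other chemokines 2 had ratios, Ccrl2 with 4.46 in SCC2 and 0.13 in SCC1 and Ccr1 with 2.72 in SCC2 and -0.52 in SCC1 in the authors' deposited table. Of 26 listed inflammatory genes 6 had ratios. The 4 with the largest mean size were Il24 with -1.19 in SCC2 and -5.70 in SCC1, Lcn2 with 4.70 in SCC2 and 1.00 in SCC1, Saa3 with 3.54 in SCC2 and -0.86 in SCC1 and Il1b with 4.07 in SCC2 and 0.16 in SCC1 in the authors' deposited table.

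The 10 other genes of the table nearest to the median profile of the 35, by Euclidean distance over the 4 ratios against proliferative cells, were Gm12250, Adamts3, Gadd45b, Ehf, Mcmdc2, Trim30a, Igtp, Zbp1, Mndal and H2-D1. Their distances ran from 0.479 to 0.818 on the log2 scale. Trim30a, Igtp, Zbp1 and H2-D1 stood on the lists of related genes just described.

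**Figure D3:**
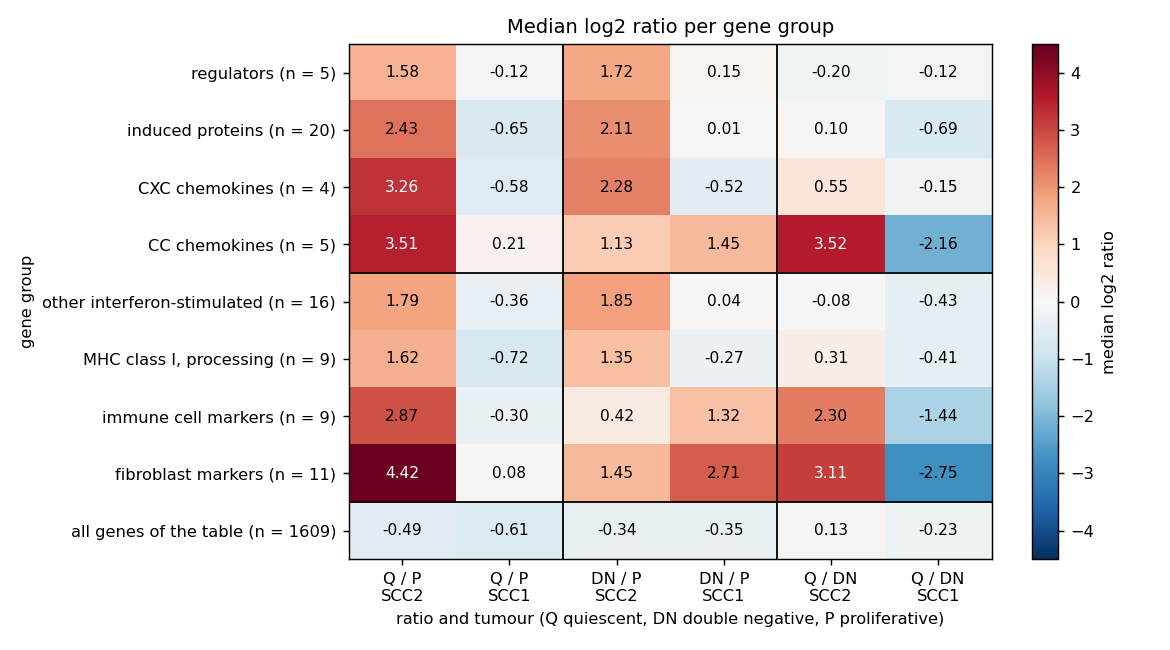
Median log2 ratio for the 4 main roles among the 35 genes, for 4 lists of other genes and for all 1609 genes (rows) in each comparison and tumour (columns), with the number of genes in brackets and colour by value. In the quiescent over double negative columns the CC chemokines stand at 3.52 in SCC2 and -2.16 in SCC1, beside 2.30 and -1.44 for immune cell markers and 3.11 and -2.75 for fibroblast markers. Keratinocyte and endothelial markers are not drawn.

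Genes that mark cells other than carcinoma cells also had rows. Of 34 immune cell markers 9 had ratios, mostly of myeloid and antigen presenting cells. Their quiescent to proliferative median was 2.87 in SCC2, with all 9 higher (2.49 to 4.24), and -0.30 in SCC1 (-1.57 to 1.65). Their double negative to proliferative median was 0.42 in SCC2 (-0.18 to 1.95) and 1.32 in SCC1, with all 9 higher, and their quiescent to double negative median was 2.30 in SCC2 and -1.44 in SCC1. Tyrobp, a myeloid signalling adaptor, had 4.24 in SCC2 and -0.30 in SCC1 and Lyz2, a macrophage and neutrophil lysozyme, had 2.87 in SCC2 and -1.57 in SCC1 in the authors' deposited table. Cd53, a leukocyte surface protein, with 2.77 in SCC2 and 1.64 in SCC1, and the class II gene H2-Ab1, with 2.49 in SCC2 and 1.65 in SCC1 in the authors' deposited table, were higher in both tumours. Of 16 fibroblast markers 11 had ratios. Their quiescent to proliferative median was 4.42 in SCC2 (2.54 to 5.38) and 0.08 in SCC1 (-0.44 to 2.75). Their double negative to proliferative median was 1.45 in SCC2 (-0.73 to 2.65) and 2.71 in SCC1 (2.32 to 4.39). Their quiescent to double negative median was 3.11 in SCC2 and -2.75 in SCC1. In the comparison of quiescent with double negative cells 21 of the 35 genes, among them all 5 CC chemokines, had the signs of both list medians, higher in SCC2 and lower in SCC1, against 40.8% of all genes. Of 10 endothelial markers 2 had ratios, Cldn5 with 2.75 in SCC2 and -0.83 in SCC1 and Egfl7 with 0.88 in SCC2 and -0.61 in SCC1 in the authors' deposited table. For double negative over proliferative cells Cldn5 had 4.53 in SCC2 and 6.84 in SCC1. Egfl7 had 1.63 in SCC2 and 3.34 in SCC1 in that comparison. The quiescent to double negative median of these 2 was -1.30 in SCC2 and -5.85 in SCC1, and both were lower in both tumours. Of 18 keratinocyte markers 3 had ratios, Krt6b with 3.22 in SCC2 and -3.71 in SCC1, Epcam with -0.40 in SCC2 and -3.21 in SCC1 and Krt16 with 0.79 in SCC2 and -1.13 in SCC1 in the authors' deposited table. The quiescent to double negative median of these 3 was 0.26 in SCC2 (-0.08 to 3.66) and -1.32 in SCC1 (-2.21 to -0.30). These medians had the same signs as those of the immune and fibroblast markers. Without levels, neither the epithelial identity of the libraries nor the amount of RNA from other cells could be read from the table. The part of such cells in the chemokine and interferon ratios was not tested, and in bulk RNA fewer cells of a type and less RNA per cell cannot be told apart.

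Chromatin was described from a list of 61553 ATAC peaks merged over libraries by the authors, so populations could not be compared. A peak lay in the gene body or within 10 kb of 33 of the 35 genes (94.3%), against 93.9% of 1600 genes of the table and 72.1% of 21900 protein-coding genes. Cxcl9 and Gbp10 had none. Of the 24 genes with a promoter sequence 19 had a peak in a window (79.2%), against 78.5% of the table's and 37.7% of all promoters. Of the 9 genes with a response element match 7 had a peak in the window. Gbp1 and Ifit3 had the motif without a peak. Smad2/3 sites, 6143 in all from 1 ChIP-seq of cultured SCC1 cells, lay within 10 kb of 4 of the 35 genes (11.4%), namely Ccl5, Cxcl1, Cxcl2 and Isg15. The share was 21.4% for the table and 15.4% for all protein-coding genes. No site lay within the body of any of the 35 genes, where 12.6% of the table's genes had one, but within 50 kb there were sites for 10 of 35 (28.6%), against 42% of the table.

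**Figure D4:**
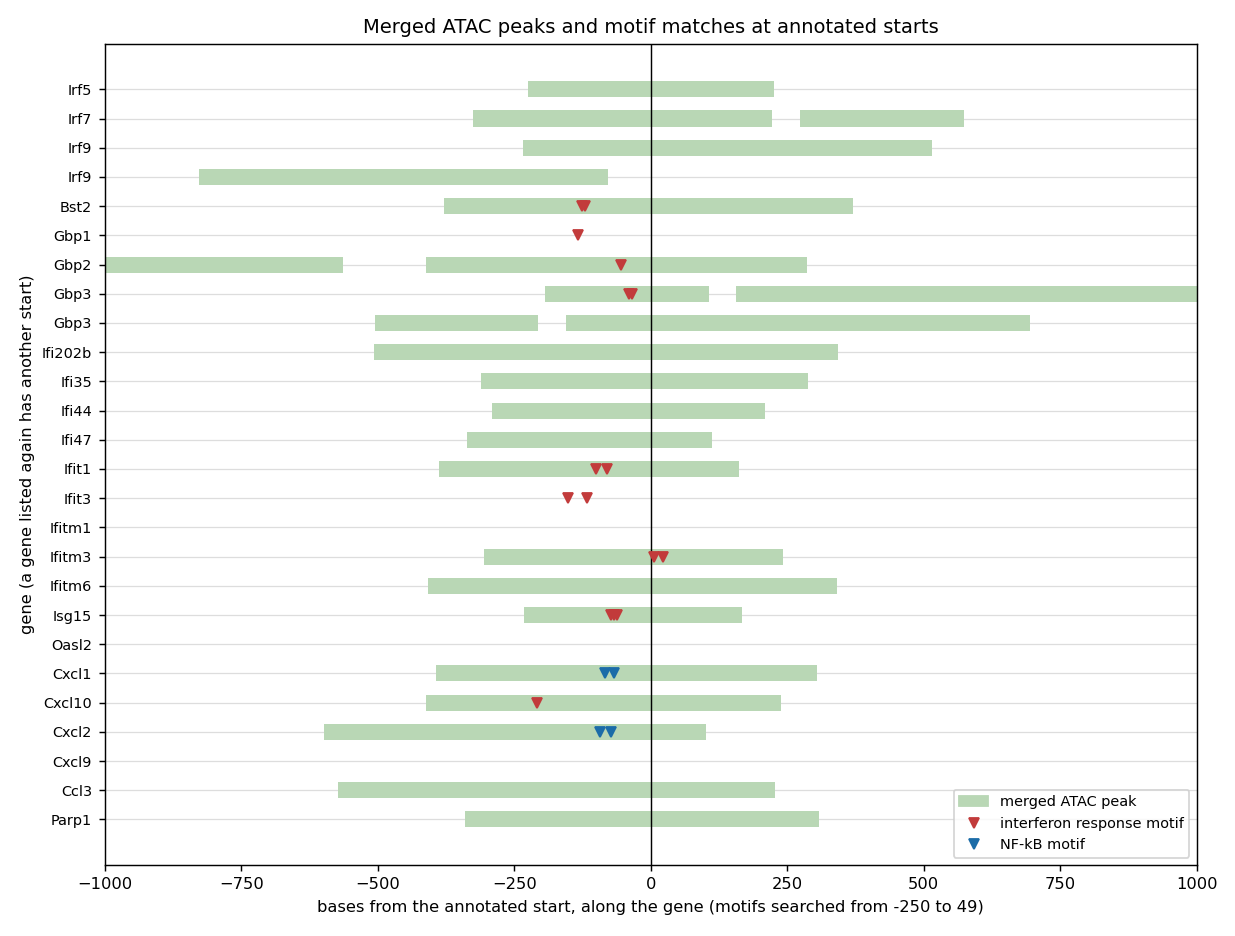
Merged ATAC peaks (green bars) and matches of the interferon response motif (red) and NF-kB motif (blue) in bases from the annotated start, along the gene, for the genes with a promoter in the reference (rows). Motifs were searched from 250 bases before to 50 after the start. Most starts lie in a peak, and the Gbp1 and Ifit3 matches lie outside one.

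Several of the genes lie side by side. Of the 35, 21 fell into 8 runs of neighbours no more than 500 kb apart, among them Gbp3, Gbp1 and Gbp2 on chromosome 3, Cxcl9 and Cxcl10 on chromosome 5 and Ccl5, Ccl3 and Ccl4 on chromosome 11. In the copy number table, made from the inputs of cultured cells, 11 of the 35 genes lay in a gain in SCC2 (31.4%) and 15 in SCC1 (42.9%), against 44.1% and 45.1% of the table's genes. None lay in a loss, against 1.5% of the table's genes in SCC2 and 1.56% in SCC1. Irf7, Ifitm1, Ifitm3 and Ifitm6 shared a gain to 4 copies in SCC1 (chr7:140100000-141600000, mm10) that was not listed in SCC2. Ccl3, Ccl4 and Ccl5 lay in a region with 3 copies in SCC2 and 4 in SCC1 (chr11:82700000-88200000, mm10). Within SCC2 the quiescent to proliferative median was 2.47 for the 11 genes in gains and 2.47 for the 24 others. Within SCC1 it was -0.14 for the 15 genes in gains and -0.59 for the 20 others.

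Coding mutations were called by the authors from the quiescent and proliferative RNA libraries. Over all genes they listed 95 in SCC2 quiescent cells and 411 in SCC2 proliferative cells. In SCC1 they listed 422 in quiescent and 498 in proliferative cells. Ifi202b, on chromosome 1 (mm10), held 4 nonsynonymous sites, K364E, I240V, I142F and Q92K. At K364E the variant made up 25% of 12 reads in SCC2 quiescent cells (exact 95% binomial interval 5.49 to 57.2%) and 60% of 37 reads in SCC2 proliferative cells (42.1 to 75.2%). In SCC1 it made up 23% of 64 reads in quiescent cells (13.8 to 35.7%) and 28% of 72 reads in proliferative cells (17.9 to 39.6%). The intervals overlap within each tumour and cover counting error only. At Q92K there were 10 reads in SCC2 quiescent cells and 26 in SCC2 proliferative cells. Reads at both sites were thus fewer in SCC2 quiescent cells, although the Ifi202b ratio there was 2.02. Whether the SCC2 quiescent library was sequenced less deeply was not tested. I240V and I142F were listed in 3 of the 4 libraries and Q92K in all 4. Ifi202b has near-identical relatives in the same gene cluster, so these calls and its ratio are uncertain.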

How the data were processed

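RNA was measured in 6 libraries of sorted tumour cells, 1 per population and tumour. The authors deposited log2 ratios for 1609 genes in 6 columns. Per the submitters' processing notes, TopHat2 2.0.9, Cufflinks 2.2.0, Cuffdiff 2.2.0, Bowtie and Picard 1.88 were used with build mm10, and mm9 is also named for the double negative RNA libraries, which could shift ratios involving them. How genes were chosen for the table is not stated in the descriptions, so shares over the table are shares over selected genes. Many values stand at exactly 12 in size, and 2 genes have a ratio beyond it. In all 42 genes, none of them among the 35, reach, pass or come within 0.1 of 12. The 3 ratios of a tumour closed to a median remainder of 0.03 in SCC2 and 0.04 in SCC1 over the 35 genes, so 2 of them are independent.

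The copy number table gives, per the file headers, a copy number score and a p-value per region, and regions called by the authors were used as deposited. The mutation table gives the read count and the percent of variant reads deposited per library, from which exact (Clopper-Pearson) 95% intervals were computed. ATAC peaks and Smad2/3 sites were used as deposited positions. Gene positions and promoters came from RefSeq (GRCm38.p6), and 1600 of 1609 genes matched, 108 of them through a synonym. Gbp1 is named Gbp2b there and Ifi27l1 is named Ifi27.

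Every ratio rests on 1 library per side, so the only replicate error is that between the 2 tumours. limma 3.58.1 (R 4.3.3) tested the 2 ratios of each comparison as paired differences, without the 42 genes at or near 12, an analysis added after seeing the data. The total depth of the RNA libraries is unknown, and no interval can be given for a ratio. The number of listed mutations, and the reads at Ifi202b K364E and Q92K, were lowest in SCC2 quiescent cells. Genes were counted by sign in both tumours, beside the same count over all 1609 genes, with Python 3.11.15 and pandas 2.3.3, and the counting and the limma fit were tested on simulated data. Alternatives were minimum sizes of 0.5 and 1, centring on the table's median, means, each tumour alone, and leaving out chemokines and Parp1. The motif TTCNNNGAA and the NF-kB motif were added after seeing the data. Of the 35 genes 34 are named, and the values of the other are not reported here, although it is counted in the totals and medians. Full values were given for Cxcl10, Usp18, Irf7 and Irf9, for genes of 1 sign and at least 1 in both tumours and for the 10 with the largest difference between tumours. Up to 4 genes per list were also named, those with the largest mean size, regardless of sign, of the quiescent to proliferative ratios. The 35 genes and all lists were chosen with earlier results of these data known.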

Additional observations from a re-analysis of the deposited data

Results flagged for a closer look

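The genes collected here were higher in 1 tumour and lower in the other, each by at least 1 on the log2 scale, so that the 2 tumours moved in opposite directions. Each difference is SCC2 minus SCC1, was not tested, and rests on 1 library per population and tumour.

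For quiescent against proliferative cells the differences were 6.76 for Ccl5, 5.35 for Gbp1, 4.94 for Cxcl9, 4.92 for Gbp4 and 4.67 for Cxcl10. They were 4.38 for Gbp10, 4.13 for Isg15, 3.97 for Ifit3, 3.86 for Ifit1, 3.67 for Gbp6 and 3.42 for Ifi44. The medians over all 35 genes, 2.47 in SCC2 and -0.37 in SCC1, differed by 2.84. For double negative against proliferative cells the differences were 4.36 for Cxcl9, 4.28 for Gbp1 and 3.28 for Ifit1.

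For quiescent against double negative cells the differences were 6.14 for Ccl4, 6.10 for Ccl5, 6.07 for Ccl3 and 3.55 for Ccl2. They were 5.31 for Ifitm1, 4.37 for Gbp10 and 3.09 for Cxcl2. The medians over the 35 genes, 0.17 in SCC2 and -0.48 in SCC1, differed by 0.65. Beside them stand the immune cell markers, with medians of 2.30 in SCC2 and -1.44 in SCC1, and the fibroblast markers, with 3.11 in SCC2 and -2.75 in SCC1, whose part in these differences was not tested. The keratinocyte markers had medians of 0.26 in SCC2 and -1.32 in SCC1, and the endothelial markers -1.30 in SCC2 and -5.85 in SCC1. Their part was not tested either.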

How the results depend on the processing

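With a minimum size of 1 in both tumours, the genes higher in quiescent than proliferative cells numbered 2 instead of 11 and those lower 0 instead of 1. Double negative against proliferative cells then gave 4 higher and 0 lower, and quiescent against double negative cells gave 1 higher and 0 lower. With a minimum of 0.5 the counts for quiescent against proliferative cells were 4 higher and 15 opposite. They were 9 higher and 7 opposite for double negative against proliferative cells, and 1 higher, 0 lower and 9 opposite for quiescent against double negative cells. Centred on the table's medians, quiescent against proliferative cells gave 20 higher and 13 opposite, and double negative against proliferative cells gave 9 opposite. Without chemokines and Parp1, 7 genes were higher and 0 lower in quiescent than proliferative cells, 0 were lower in double negative than proliferative cells, and 2 were higher in quiescent than double negative cells. Leaving out 1 tumour, the counts ranged from 11 to 34 higher and 1 to 24 lower for quiescent against proliferative cells. They ranged from 20 to 33 higher and 2 to 15 lower for double negative against proliferative cells, and from 6 to 25 higher and 10 to 29 lower for quiescent against double negative cells. The mean quiescent to double negative ratio in SCC2 was 0.77 instead of the median of 0.17. Genes with a Smad2/3 site numbered 0 in the gene body and 10 within 50 kb, instead of 4 within 10 kb. The causes of these shifts, beyond stricter sizes, fewer genes or other windows, were not tested. The ratios are already paired within a tumour. With the tumour as the replicate block, limma (adjusted p under 0.05, chosen after seeing the data) called 0 higher and 0 lower in quiescent than proliferative cells, 5 higher in double negative than proliferative cells, and 0 higher and 0 lower in quiescent than double negative cells. At an unadjusted p under 0.05 it had 1 higher and 0 lower, 7 higher, and 1 higher and 0 lower in the same order. Among all 1567 genes the limma counts at that p were 142 higher and 281 lower, 468 higher, and 12 higher and 32 lower. Total depth, levels and the error within a tumour are unknown for every ratio.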
